A study of Homo sapiens with 6 samples.

Results

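Translation initiation and elongation factors are the cytosolic proteins that carry a ribosome onto an mRNA and move it along the reading frame. The genes described here are the protein-coding rows of the deposited count table whose symbol begins with EIF or EEF followed by a number, without the eIF2 kinases EIF2AK1 to EIF2AK4, without EIF4E2 and without genes on Y. This rule gave 63 of the 57820 rows, and 59 of the 63 had enough counts to enter the comparison of 19676 genes.

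The libraries were poly(A)-enriched, strand-marked RNA-seq libraries from HEK293T, an established human line of embryonic kidney origin with the SV40 large T antigen. Every group received RfxCas13d, an RNA-guided enzyme that cuts RNA, so both groups carry the nuclease. The non-targeting group (NT, 3 biological replicates) had a crRNA with no intended target, and the mCherry-targeting group (TAR, 3 biological replicates) had a crRNA against the transcript of the red fluorescent protein mCherry. The sources used here do not give whether the cells contained mCherry, how the nuclease was delivered or when the cells were harvested, and no group lacked the nuclease.

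Initiation begins when eIF2 brings the initiator tRNA to the small ribosomal subunit together with eIF1, eIF1A, eIF3 and eIF5, while eIF4F holds the capped end of the mRNA. eIF5B then joins the large subunit, eEF1A delivers each following aminoacyl-tRNA, and eEF2 moves the ribosome forward by a codon. Many mRNAs for elongation factors and ribosomal proteins begin with a C followed by a run of pyrimidines, the 5′ terminal oligopyrimidine (TOP) element through which mTOR signalling and LARP1 control their translation and stability.

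The sequences around the annotated starts are shown first. EEF1A1 and EEF2, the most abundant members, carry such a start. EIF5B and EIF1AX, the members with the largest positive differences, do not. The windows were picked with the fold changes known and are not a sample of the members. Among tested members with a start on record, 5 of 13 with such a run and 18 of 33 without it had log2 fold changes above 0. Each window gives 10 bases before the start and 15 from it, 5′ to 3′ on the strand of the gene, from RefSeq on GRCh38.p14. Capitals mark the unbroken run of C and T that begins with a C at the start base.
EEF1A1: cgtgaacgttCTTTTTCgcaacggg
EEF2: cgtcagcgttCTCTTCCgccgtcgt
EEF1B2: ctcttcgggtCCTTTTTCCTCTCTT
EIF4B: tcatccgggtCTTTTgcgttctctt
EIF3F: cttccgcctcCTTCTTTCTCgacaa
EIF3D: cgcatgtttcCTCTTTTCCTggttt
EIF2S3: gatttccttcCTCTTTTggcaacat
EIF2S3B: gactttcttcCTCTTTTggcaacat
EIF4A2: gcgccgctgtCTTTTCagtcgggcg
EIF5B: ctgagaactcacaccatatgtgtcc
EIF1AX: gagtcgcggcgccatttgctgccgc
EIF3J: ccgccgtgctaactcctcgctagct

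The EEF1A1 window lies at chr6:73521018-73521042 on the minus strand and holds a run of 7 bases. The EEF2 window, at chr19:3985449-3985473 on the minus strand, also holds a run of 7. The EEF1B2 run is 16 bases long and continues past the window at chr2:206159885-206159909. A second annotated start of EEF1B2 lies upstream and has no run. The EIF4B run at chr12:53006446-53006470 is 5 bases long, the shortest that was counted. EIF3F at chr11:7987327-7987351 and EIF3D at chr22:36529152-36529176 each have a run of 10. EIF2S3 at chrX:24054946-24054970 and its retrogene copy EIF2S3B at chr12:10505880-10505904 have the same run of 7, although another annotated start of EIF2S3B a few bases on has none, and EIF4A2 at chr3:186783567-186783591 has a run of 6. The windows of EIF5B at chr2:99337379-99337403, EIF1AX at chrX:20141824-20141848 and EIF3J at chr15:44537137-44537161 have no run at the start base.

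A start was counted as pyrimidine-type when a C at the start base was followed by at least 4 further bases that are each C or T, on the gene's own strand. Of the 63 members, 50 had a promoter entry and 13 of those had such a start, which is 26%. The same start was found in 1404 of 27305 genes of the promoter table, or 5.14%, in 7.13% of the tested genes with an entry, and in 46 of 62 ribosomal protein genes. The 13 members were the elongation factors EEF1A1, EEF1B2 and EEF2, the eIF2-related genes EIF2A, EIF2D, EIF2S3 and EIF2S3B, the eIF3 subunits EIF3D, EIF3F, EIF3K and EIF3M, and EIF4A2 and EIF4B. These are matches to letters at an annotated start and were not measured as start sites in these cells.

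The 6 libraries held between 21321850 and 25906275 counts each. Levels are given in CPM, the count scaled to a common library total with TMM factors. Of the 10 HEK293T markers listed, 8 could be matched to a row by Ensembl ID, and all 8 exceeded 1 CPM in every library. A marker without a matched row has no level here, which does not make it absent. Of 13 matched markers of blood, fibroblast, liver and endothelial cells, 10 were under 1 CPM in every library. The highest of the 13, COL1A1, reached 17.9 CPM. The libraries differed in a way that the groups do not explain: 7SK, a non-coding RNA that lacks a poly(A) tail, took 1.15% and 1.37% of the counts in NT libraries 2 and 3 and 1.15% in TAR library 3, but 0.439% to 0.716% in NT library 1 and TAR libraries 1 and 2. Within these sets of 3 libraries, 35 of the 59 tested members had the same sign of difference in both. All 13 with an unadjusted p under 0.05 by edgeR were among them. Those 13 were picked by p over the same 6 libraries, so their agreement adds no separate support. The share of all genes with the same sign in both sets is not given here. Of the 24 members whose sign differed, 22 were above 0 between the libraries with less 7SK and below 0 between those with more. EIF4G3 and EEF1AKMT2 were the reverse. The pooled fold changes of these 24 have no common direction across the sets, and within-set values are given below for the members the results turn on. In each set 1 group has only 1 library, NT library 1 or TAR library 3, so a within-set value can rest on that library. In bulk RNA, a lower level can mean fewer cells of a kind or less RNA per cell, and these cannot be told apart.

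No member passed the test between the groups (edgeR quasi-likelihood test, Benjamini-Hochberg adjusted p under 0.05), against 0.0102% of all tested genes. At an unadjusted p under 0.05 there were 13 of 59 members, or 22.0%, against 16.1% of all genes. Of these, 11 were higher in TAR, where 10.0% of all genes were, and 2 were lower, where 6.09% were. The 11 were EIF5B, EIF1AX, EIF3E, EIF3J, EEF1E1, EIF3A, EIF2S1, EIF3M, EIF2S2, EIF4A2 and EIF4E, and the 2 were the eEF1A genes EEF1A1 and EEF1A2. With upper-quartile factors in place of TMM this split became 7 higher and 7 lower, against 8.18% and 7.97% of all genes. Over all 59 members, 28 had a log2 fold change above 0, where 49.4% of all genes did, and 31 below, with a median of -0.04 against -0.004 for all genes tested. The sign of the members' median turned with the library set as a term (0.04), and the median was -0.10 without NT library 1. The 3 TAR libraries all lay above the 3 NT libraries for 12 members, where 12.6% of all genes did so, and all below for 4 members, where 9.37% did so, and 43 members overlapped. DESeq2 on the same counts called 3 members, EEF1A1, EIF5B and EIF1AX, and 0.859% of all genes, while limma-voom called 0 members and 0.00508% of all genes. Without the filter on low counts, edgeR called 6 members, EEF1A1, EEF1A2, EEF2, EIF1AX, EIF3E and EIF5B, and 1.68% of all genes. With the library set as a term it called 4, EIF1AX, EIF3E, EIF3J and EIF5B, and 3.62% of all genes. Without NT library 1 it called 9, EEF1A1, EEF1A2, EEF2, EIF1AX, EIF3E, EIF3G, EIF3J, EIF3K and EIF5B, and 8.98% of all genes, and 28 members had an unadjusted p under 0.05, against 26.7% of all genes. With any other single library left out it called 0 members.

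**Figure D1:**
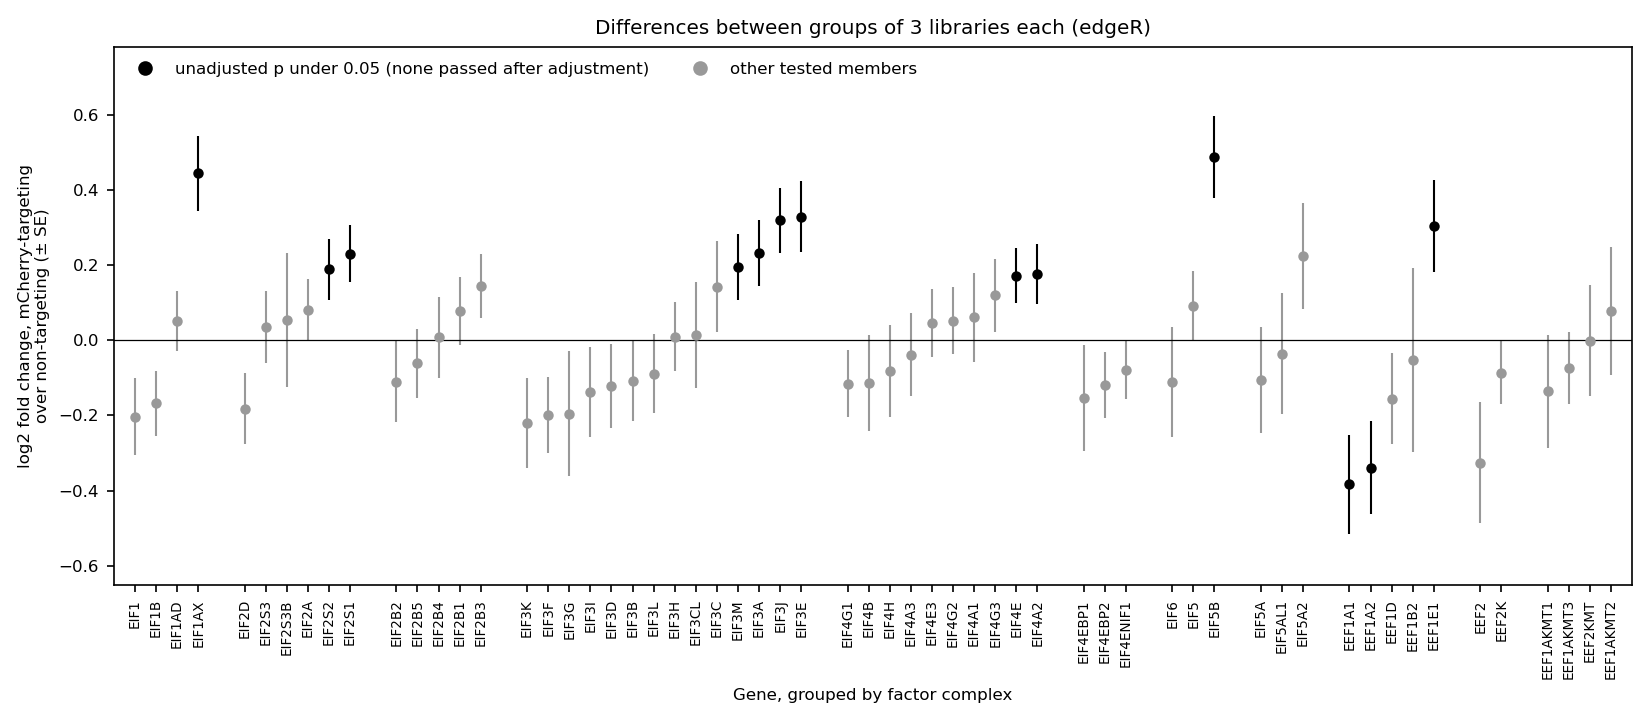
Log2 fold change of each tested member, mCherry-targeting over non-targeting, with bars of 1 standard error, grouped by factor complex along the horizontal axis. Black points are the 13 members with an unadjusted p under 0.05, from -0.38 for EEF1A1 to 0.49 for EIF5B, and none passed after adjustment.

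The eEF1 complex held the most abundant transcript of the members and the lowest fold change. EEF1A1 (ENSG00000156508.13, chr6:73515750-73523797 on the minus strand of GRCh38) encodes the eEF1A isoform of most proliferating cells, the GTPase that brings aminoacyl-tRNA to the ribosome. It measured 5845, 6732 and 6943 CPM in NT libraries 1 to 3 and 4668, 4730.1 and 5563 CPM in TAR libraries 1 to 3. All 3 TAR libraries were below all 3 NT libraries, and TAR library 3 and NT library 1 were the nearest pair. The log2 fold change was -0.38 ± 0.13 (SE, n = 3 against 3), a level 1.30-fold lower in TAR, with an adjusted p of 0.219 in edgeR's quasi-likelihood test. The difference was -0.31 between the libraries with less 7SK and -0.30 between those with more. Without NT library 1 it was -0.46 with an adjusted p of 0.0407 by edgeR. The gene ranked 3 of all genes by summed count and alone took 0.477% to 0.672% of each library.

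EEF1A2, the eEF1A isoform known from neurons and muscle, measured 103, 113 and 145 CPM in NT and 88.1, 90.8 and 106 CPM in TAR. TAR library 3 lay above NT library 1, so the groups overlapped. The log2 fold change was -0.34 ± 0.12 with an adjusted p of 0.235 by edgeR, and it was -0.15 after a correction for GC content and -0.18 without NT library 3. Per kilobase of longest transcript EEF1A2 made up 2.01% ± 0.24 (SD, n = 3) of the summed eEF1A level in NT and 2.07% ± 0.018 in TAR. The exact two-sided permutation p was 0.7, and with 3 against 3 libraries no share can go below 0.1.

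The exchange factor of eEF1A is made of EEF1B2, EEF1D and EEF1G. EEF1B2 had the widest spread over libraries of all members, at 154, 260.4 and 291 CPM in NT and 193, 209 and 279 CPM in TAR. NT library 1 was the lowest and NT library 3 the highest of the 6, and the log2 fold change was -0.05 ± 0.25. Within the sets it was 0.38 between libraries with less 7SK and 0.02 between those with more, both opposite in sign to the pooled value. EEF1D gave -0.16 ± 0.12. EEF1G had 0 counts in all 6 libraries. On the GENCODE 29 annotation, 99.9% of its exon bases also belong to AP002990.1, a gene on the same strand, which itself had 3 to 11 counts, so this row gives no level for EEF1G. EEF1E1, a scaffold protein of the aminoacyl-tRNA synthetase complex, was at 14.5, 15.8 and 14.7 CPM in NT and 21.1, 16.3 and 18.2 CPM in TAR. All 3 TAR libraries were above NT, by 0.30 ± 0.12 on the log2 scale (adjusted p = 0.261, edgeR), and by 0.07 after GC correction. The readthrough gene EEF1E1-BLOC1S5 had 0 counts.

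EEF2 (ENSG00000167658.11, chr19:3976056-3985469, minus strand) encodes the translocase eEF2. Its NT libraries measured 3832, 4995 and 5824 CPM, and its TAR libraries 3374, 4055 and 4262 CPM. NT library 1 lay inside the range of the TAR libraries. The log2 fold change was -0.33 ± 0.16 (adjusted p = 0.342, edgeR). Between libraries with less 7SK the difference was -0.04 and between those with more it was -0.34, and after GC correction it was -0.15. It was -0.47 without NT library 1, with an adjusted p of 0.0400 by edgeR, and -0.18 without NT library 3, with an adjusted p of 0.764. EEF2K, the kinase that phosphorylates and inhibits eEF2, overlapped between groups at 173, 183 and 199.7 CPM in NT and 167, 177 and 179.9 CPM in TAR, a log2 fold change of -0.09 ± 0.08.

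EEF1A1 and EEF2 together made up 48.5%, 50.05% and 51.2% of all member counts in NT libraries 1 to 3. In TAR libraries 1 to 3 they made up 43.1%, 43.9% and 45.2%. The groups did not overlap in this share, and the lowest NT library was above the highest TAR library. The share was computed after the values of both genes were seen and was not tested.

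**Figure D2:**
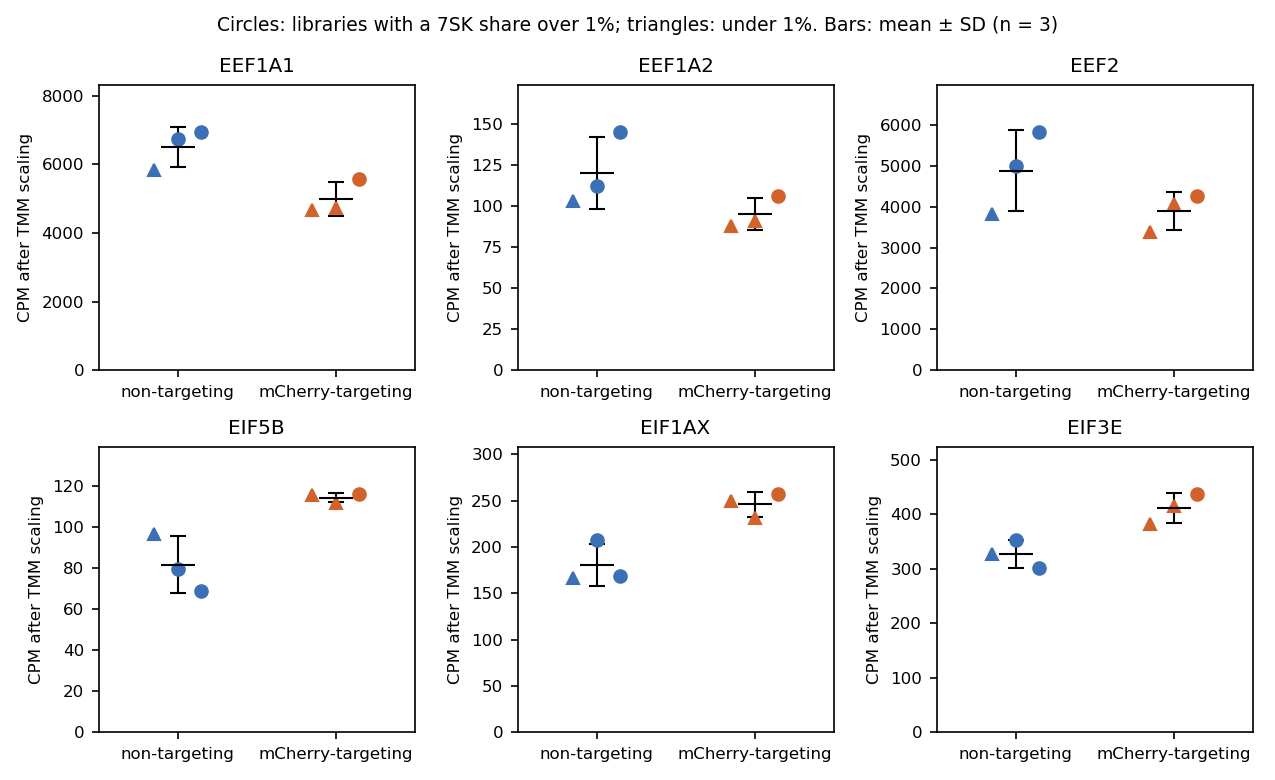
CPM after TMM scaling in each library for 3 elongation factor genes (top) and 3 initiation factor genes (bottom), with libraries above 1% 7SK as circles, those below as triangles, and bars for the mean and SD of 3 libraries. EEF1A1 ran from 4668 to 6943 CPM with no overlap between groups, EEF1A2 and EEF2 overlapped, and EIF5B, EIF1AX and EIF3E were higher in every mCherry-targeting library.

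The 4 methyltransferase genes that modify the elongation factors were low, from 4.78 to 25.3 CPM on average, and none had an unadjusted p under 0.05. EEF1AKMT1, a lysine methyltransferase of eEF1A, was at 5.13, 5.08 and 4.81 CPM in NT and 4.45, 4.76 and 4.46 CPM in TAR, and its log2 fold change was -0.14 ± 0.15. The TAR libraries lay just below the NT libraries. EEF1AKMT2, another lysine methyltransferase of eEF1A, had 0.08 ± 0.17, and EEF1AKMT3 had -0.07 ± 0.10. EEF2KMT, which methylates eEF2, shares 29.3% of its exon bases with ALG1 on the opposite strand. It was at 20.8, 27.0 and 28.0 CPM in NT and 29.5, 20.6 and 25.8 CPM in TAR, and the groups overlapped.

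Among initiation factors the largest positive difference was in EIF5B (ENSG00000158417.6, chr2:99337353-99401326, plus strand), the GTPase that joins the ribosomal subunits. It measured 96.4, 79.5 and 68.9 CPM in NT and 115, 112 and 116 CPM in TAR. Every TAR library was above every NT library, the TAR libraries lay close together and the NT libraries were spread. The log2 fold change was 0.49 ± 0.11, or 1.40-fold, with an adjusted p of 0.193 in edgeR's quasi-likelihood test. Between libraries with less 7SK, with NT library 1 alone on its side, it was 0.24. Between those with more, with TAR library 3 alone on its side, it was 0.64. With the library set as a term in the fit it was 0.44 ± 0.09 and passed (adjusted p = 0.00440, edgeR). After GC correction it was 0.30 ± 0.08 and did not (adjusted p = 0.676, edgeR). Without NT library 1 it was 0.62 with an adjusted p of 0.00755 by edgeR. About 10.8% of the exon bases of EIF5B lie opposite REV1.

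The other late factors differed less. EIF5, the GTPase-activating protein of eIF2, measured 244, 253 and 215 CPM in NT and 268, 234 and 256 CPM in TAR, and the groups overlapped (0.09 ± 0.09). EIF6, which keeps the large subunit from joining too early, was at 21.3, 28.3 and 32.7 CPM in NT and 24.2, 23.4 and 28.6 CPM in TAR (-0.11 ± 0.15), and 17.4% of its exon bases are shared with a gene on the same strand.

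In the group that scans for the start codon, EIF1AX (ENSG00000173674.6, chrX:20124518-20141844, minus strand) encodes eIF1A, which binds the decoding site of the small subunit. It measured 167, 207 and 168 CPM in NT and 249.7, 231 and 257 CPM in TAR. All TAR libraries were above all NT libraries, and NT library 2 was the nearest to them. The log2 fold change was 0.44 ± 0.10, or 1.36-fold, with an adjusted p of 0.193 by edgeR. It was 0.53 between libraries with less 7SK and 0.45 between those with more, and 0.19 after GC correction. With the library set as a term it was 0.49 ± 0.09 with an adjusted p of 0.00157 by edgeR, and without NT library 1 it was 0.39 with an adjusted p of 0.0248 by edgeR.

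EIF1, whose protein guards the choice of the start codon, went the other way. It was at 530.3, 582 and 659.7 CPM in NT and 494, 499.8 and 545 CPM in TAR. TAR library 3 lay above NT library 1, and the log2 fold change was -0.20 ± 0.10. Its paralog EIF1B gave -0.17 ± 0.09. EIF1B held 25.8% ± 0.62 (SD, n = 3) of the summed EIF1 and EIF1B level per length in NT and 26.2% ± 0.67 in TAR (exact permutation p = 0.6). EIF1AD, an eIF1A-domain protein, gave 0.05 ± 0.08.

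The 3 subunits of eIF2, the GTPase that carries the initiator tRNA, differed from one another in level. EIF2S3, the gamma subunit, was the most abundant at 662, 722 and 751 CPM in NT and 682, 759 and 749 CPM in TAR, with overlapping groups and a log2 fold change of 0.04 ± 0.10. EIF2S1, the alpha subunit phosphorylated in the integrated stress response, measured 111, 119 and 112 CPM in NT and 137, 132 and 133 CPM in TAR. All TAR libraries were higher, by 0.23 ± 0.08 on the log2 scale (adjusted p = 0.211, edgeR), and by 0.05 after GC correction. EIF2S2, the beta subunit, was at 222, 203 and 207 CPM in NT and 237, 232 and 249 CPM in TAR, a log2 fold change of 0.19 ± 0.08 (adjusted p = 0.284, edgeR). EIF2D, an initiator tRNA factor outside eIF2, was at 108, 128 and 133 CPM in NT and 102, 107 and 116 CPM in TAR, an overlap with -0.18 ± 0.09. EIF2A gave 0.08 ± 0.08. EIF2S3B was below 5 CPM in every library, and reads of this near-identical copy cannot be assigned with certainty.

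The exchange factor eIF2B, which reloads eIF2 with GTP, had 5 subunit genes between -0.11 and 0.14 on the log2 fold scale and none with an unadjusted p under 0.05. EIF2B3 was at 35.0, 34.2 and 34.7 CPM in NT and 38.7, 39.1 and 37.1 CPM in TAR. Its groups did not overlap, with 0.14 ± 0.09. EIF2B2 was at 50.4, 63.4 and 65.8 CPM in NT and 53.1, 53.4 and 60.0 CPM in TAR (-0.11 ± 0.11). EIF2B1 was at 62.0, 69.6 and 66.4 CPM in NT and 75.7, 69.1 and 64.1 CPM in TAR, and the groups overlapped. The 5 levels per kilobase lay within 2.74-fold of one another.

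eIF3, the largest initiation complex, spans the small subunit and keeps it free for scanning. Of its 14 genes, 7 were above 0 and 7 below, and 4 had an unadjusted p under 0.05, all higher in TAR, where 10.0% of all genes were. After GC correction 1 did, EIF3F, and it was lower. EIF3E measured 327, 353 and 302 CPM in NT and 382, 415 and 436 CPM in TAR. The groups did not overlap, and the log2 fold change was 0.33 ± 0.09 (1.26-fold, adjusted p = 0.198, edgeR). It was 0.29 between libraries with less 7SK and 0.41 between those with more, 0.12 after GC correction, and passed without NT library 1 (0.33, adjusted p = 0.0475, edgeR). EIF3J, a loosely bound subunit, was at 67.3, 71.1 and 62.0 CPM in NT and 77.4, 85.8 and 86.9 CPM in TAR. Again every TAR library was higher, by 0.32 ± 0.09 on the log2 scale (adjusted p = 0.195, edgeR), by 0.13 after GC correction, and by 0.32 without NT library 1, where it passed (adjusted p = 0.0373, edgeR).

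EIF3A, the scaffold subunit of eIF3, was at 306, 321 and 312 CPM in NT and 339, 371 and 393 CPM in TAR, with no overlap (0.23 ± 0.09, adjusted p = 0.239, edgeR). EIF3M gave 0.20 ± 0.09 and -0.02 after GC correction. On the other side, EIF3K was at 103, 136 and 148 CPM in NT and 104, 111 and 118 CPM in TAR. NT library 1 was the lowest of the 6, and the log2 fold change was -0.22 ± 0.12, with 0.06 between libraries with less 7SK and -0.27 between those with more. EIF3D, the cap-binding subunit, was at 353, 442 and 478 CPM in NT and 379, 383 and 409 CPM in TAR, with overlap and -0.12 ± 0.11 (0.11 and -0.17 within the sets). Its mean level per kilobase of longest transcript, 189, was next to that of EIF3E, 186, which was the higher of the pair in every TAR library, and with median transcript length EIF3E (258) exceeded EIF3D (203). EIF3L, the subunit with the most CPM, was at 429, 476 and 535 CPM in NT and 413, 457 and 483 CPM in TAR, with overlap and -0.09 ± 0.11. Without NT library 1 the subunits EIF3G and EIF3K passed, at -0.38 and -0.36 (adjusted p of 0.0249 and 0.0191, edgeR), and without NT library 3 they were at -0.02 and -0.11. EIF3C (15.1 to 19.5 CPM) and EIF3CL (10.4 to 13.8 CPM) are near-identical copies, so their levels are uncertain.

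The cap complex eIF4F joins the cap-binding protein eIF4E, the scaffold eIF4G and the helicase eIF4A, with EIF4B and EIF4H as helpers of the helicase. EIF4E was at 94.9, 94.1 and 95.6 CPM in NT and 105, 107 and 108 CPM in TAR. The libraries of each group lay close together with no overlap, and the log2 fold change was 0.17 ± 0.07 (adjusted p = 0.280, edgeR), or -0.02 after GC correction. EIF4A2, a helicase isoform, measured 195, 214 and 208 CPM in NT and 235, 226 and 235 CPM in TAR. Every TAR library was higher, with 0.18 ± 0.08 (adjusted p = 0.302, edgeR) and -0.02 after GC correction. EIF4A1 held only 373 to 564 counts per library, and 46.3% of its exon bases are shared with genes on the same strand, so the balance of the helicase isoforms cannot be read from these rows.

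EIF4G1, the main scaffold, was at 684, 712 and 714 CPM in NT and 621, 667 and 659.6 CPM in TAR. All TAR libraries were lower, with a log2 fold change of -0.12 ± 0.09. EIF4G3, its paralog, held 23.6% ± 1.39 (SD, n = 3) of the summed level per length in NT and 26.6% ± 1.52 in TAR (exact permutation p = 0.2). EIF4B, the most abundant of the group, was at 908, 1069 and 1155 CPM in NT and 819, 1001 and 1075 CPM in TAR, with overlap and -0.11 ± 0.13. EIF4G2, a scaffold that does not bind eIF4E, gave 0.05 ± 0.09.

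The 3 measured genes that restrain or move eIF4E were all slightly below 0. EIF4EBP1, the mTOR-controlled eIF4E-binding protein, was at 159, 197 and 247 CPM in NT and 179, 165 and 199 CPM in TAR, and the groups overlapped (-0.15 ± 0.14, with 0.11 between libraries with less 7SK and -0.16 between those with more). EIF4EBP2 was at 250.3, 254 and 259.8 CPM in NT and 211, 239 and 253 CPM in TAR (-0.12 ± 0.09). EIF4ENIF1, which carries eIF4E into the nucleus, gave -0.08 ± 0.08. EIF4EBP3 and the germline isoform EIF4E1B had at most 7 counts in a library and were not tested.

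EIF5A carries hypusine and helps the ribosome through difficult peptide bonds. It was at 446, 622 and 675 CPM in NT and 505, 519.9 and 594 CPM in TAR. NT library 1 was the lowest of the 6, and the log2 fold change was -0.11 ± 0.14, with 0.20 between libraries with less 7SK and -0.13 between those with more. EIF5A2 was at 15.7, 14.2 and 11.2 CPM in NT and 16.8, 17.0 and 14.3 CPM in TAR, with overlap and 0.22 ± 0.14. With 3 against 3 libraries none of the 7 paralog shares could pass the exact permutation test, and adjusted over the 7 the p was 0.817 or above.

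Per kilobase of the longest transcript, the mean levels ran from 1388 CPM for EEF2 down to 1.35 CPM for EIF5AL1, a near-copy of EIF5A whose reads cannot be assigned with certainty. EEF2 (1388 CPM per kilobase) and EEF1A1 (1294) stood above the rest, and their order in single libraries was not constant. EIF5A followed at 371, then EIF2S3 at 252, EIF4B at 242 and EIF1 at 237, and these last 3 overlapped in their library ranges. The choice of length matters: with the median length of basic protein-coding transcripts EEF1A1 (1667) was above EEF2 (1388), EIF4B was at 506, and EIF3F moved from 30.0 to 180.

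**Figure D3:**
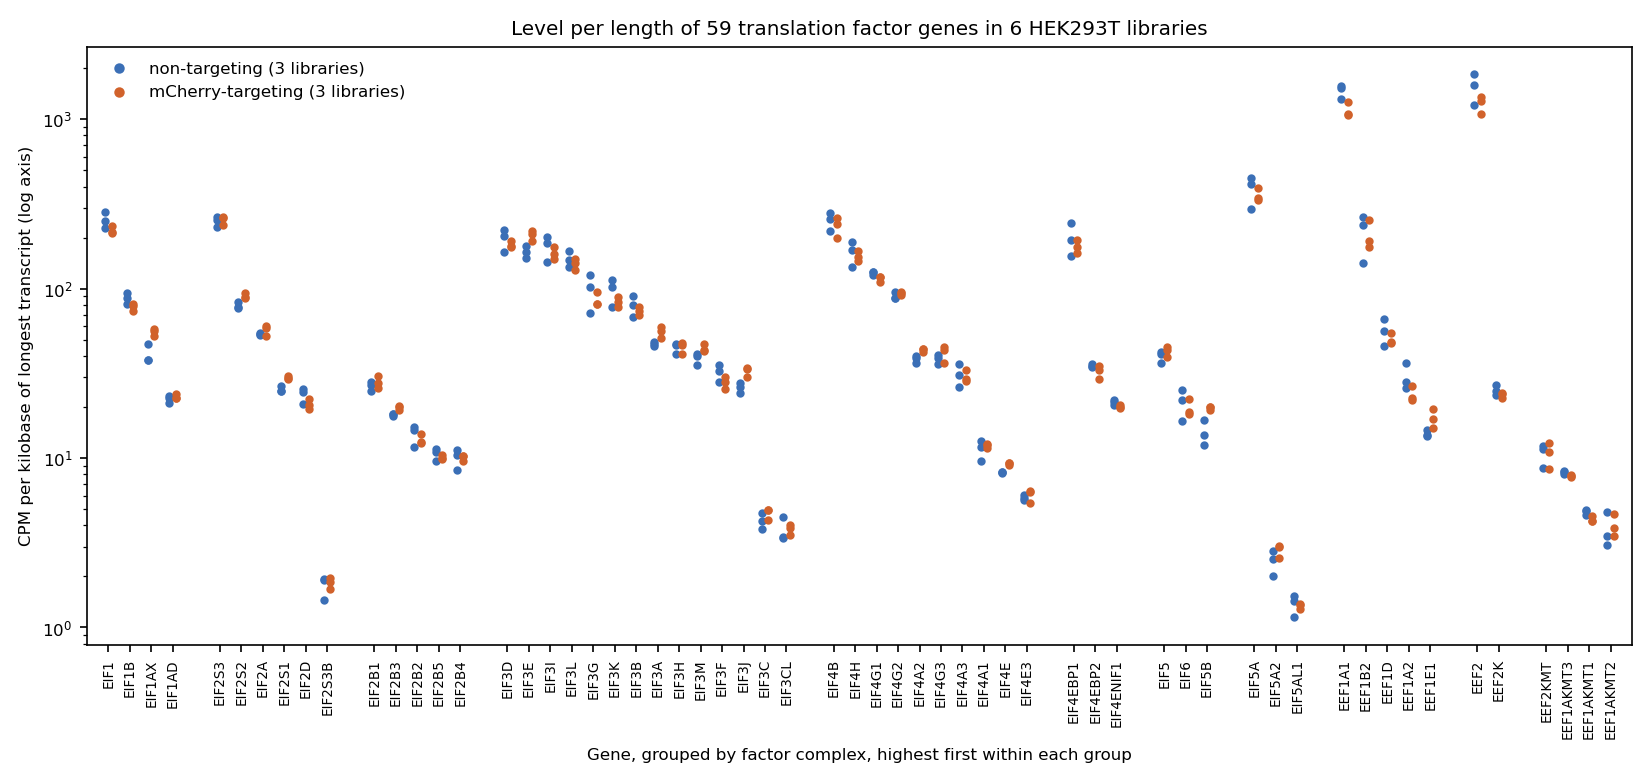
CPM per kilobase of longest transcript on a log axis for each tested member in each library, blue for non-targeting and orange for mCherry-targeting, grouped by factor complex. EEF2 and EEF1A1 lie near 1388 and 1294 CPM per kilobase on average, and the differences between genes exceed those between groups.

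The fold changes of the members ran with the GC content of their longest transcript. All 13 members under 40% GC were above 0, with a median of 0.22, where 89.0% of all genes in that range were above 0 with a median of 0.24. Of the 28 members from 40% to 50% GC, 13 were above 0 with a median of -0.04, where 62.2% of all genes were above 0 with a median of 0.05. The 13 members under 40% included 9 of the members with an unadjusted p under 0.05. Of the 18 members at 50% GC or more, 2 were above 0, where 22.9% of all genes were. As a description across genes, which share the 6 libraries and are not replicates, Spearman's rho was -0.67 over the 59 members and -0.57 over 18893 genes. After the GC correction, which takes the trend with GC content out of each library, these were 0.07 and -0.02. A rho near 0 over all genes is thus set by the correction and is not a finding. In that edgeR fit 6 members had an unadjusted p under 0.05, against 6.99% of all genes. They were EIF5B and EIF2B3 above 0 and EEF1A1, EIF3F, EIF2D and EIF1B below. The correction used the GC content of the longest transcript alone. That transcript has 7540 bases for EIF3F and 5224 for EIF2D, where the median lengths of their basic protein-coding transcripts are 1254 and 1819. For EIF1B both lengths are 1010 bases. How the corrected values depend on the choice of transcript was not tested. EEF1A1 has 46.1% GC, and its log2 fold change was -0.40 after the correction (adjusted p = 0.676, edgeR). What part GC content had in any of these differences was not tested.

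Among the 13 members with a pyrimidine start, 5 were above 0 and the median log2 fold change was -0.11. Of the 33 tested members with an entry and no such start, 18 were above 0 and the median was 0.05. Of all genes tested, 49.4% were above 0. Of the 850 tested genes with the start, 349 were above 0, with a median of -0.05. Of the 11067 with an entry and no such start, 5261 were above 0, with a median of -0.01. The median of ribosomal protein genes was -0.11 with the start and -0.14 without it. Relative to each gene's mean, the members with the start had a median log2 level of -0.17, 0.12 and 0.20 in NT libraries 1 to 3 and -0.18, -0.09 and 0.05 in TAR libraries 1 to 3. NT libraries 2 and 3 and TAR library 3, those with more 7SK, were the high ones. The ribosomal protein genes with the start had the same signs, from -0.36 in NT library 1 to 0.33 in NT library 3, and so had those without it, from -0.32 to 0.30. The members without the start also had these signs, from -0.11 in NT library 1 to 0.05 in TAR library 3. The sizes differed in NT library 3, at 0.20 for members with the start and 0.01 for those without. In TAR library 3 both were at 0.05. Over all tested genes with an entry, NT library 3 was at 0.06 with the start and 0.0008 without it. Whether the start had a part in these levels was not tested. With GC correction and the library set in the fit, the medians of the members with and without the start were -0.03 and 0.04. The part of the library sets in these medians was not tested.

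**Figure D4:**
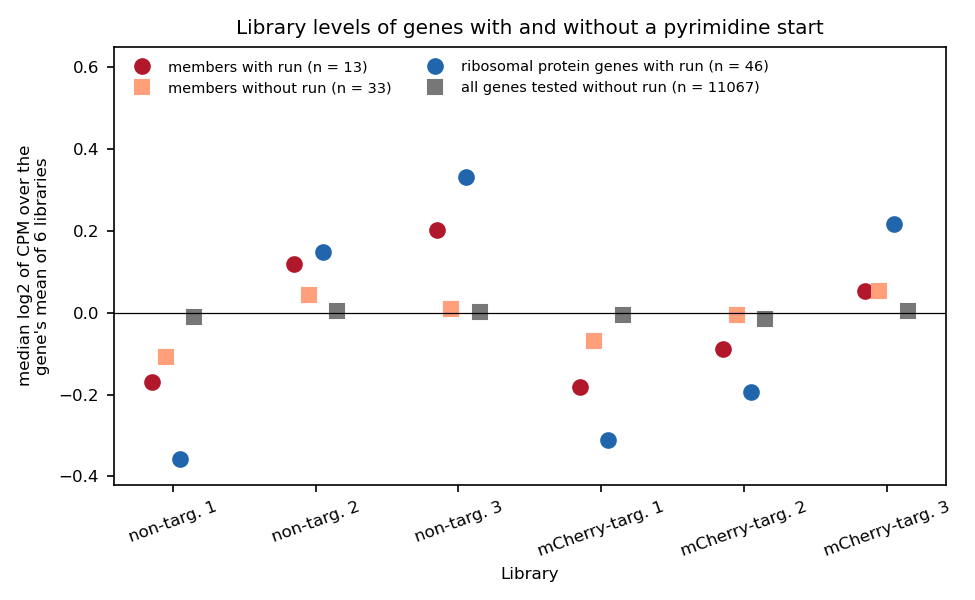
Median log2 of CPM over the gene's mean of 6 libraries, by library, for members with a pyrimidine start (13), members without (33), ribosomal protein genes with it (46) and all tested genes without it. Members with the start lie between -0.18 and 0.20 and are highest in non-targeting libraries 2 and 3, and ribosomal protein genes spread further in the same libraries.

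Of 53 other genes of the pathway, which cover termination, cap-dependent regulators, eIF2 phosphatase, hypusine and diphthamide enzymes, selenocysteine and mitochondrial translation, 52 were tested and 0 passed in edgeR. At an unadjusted p under 0.05 there were 9 higher and 2 lower, where 10.0% and 6.09% of all genes were, and the median log2 fold change was 0.01. Without NT library 1 edgeR called 10 of these genes, where 8.98% of all genes were called. With the library set term it called 7, where 3.62% of all genes were called. DESeq2 called 1, PPP1CB, where 0.859% of all genes were called. The smallest p among those above 0 belonged to PPP1CB, a catalytic subunit of protein phosphatase 1, at 0.35 ± 0.08 (adjusted p = 0.193, edgeR). The smallest p among those below 0 belonged to PPP1R15A, the stress-induced subunit that directs the phosphatase to eIF2, at -0.29 ± 0.12 (adjusted p = 0.268, edgeR). Where 49.4% of all genes were above 0, so were 6 of 7 termination and recycling genes and 7 of 9 mitochondrial factors. The counts were 6 of 14 for poly(A)-binding and cap-dependent regulators and 4 of 8 for eIF2 phosphatase genes and initiation helpers. They were 3 of 10 for hypusine and diphthamide genes and 2 of 4 for selenocysteine genes. The lists differ in GC content, with a median of 40.9% for the termination list and 55.5% for the hypusine list. Of all genes, 62.2% were above 0 from 40% to 50% GC and 22.9% at 50% or more. After GC correction the termination median went from 0.16 to 0.07 and the hypusine median from -0.04 to 0.03. The selenocysteine median went from -0.01 to -0.07. What part GC content had was not tested. Of 76 ribosomal protein genes tested, 18 were above 0 and 58 below, with a median of -0.12 and none with an unadjusted p under 0.05, where 16.1% of all genes were. That median was 0.08 with the library set term. Without NT library 1 it was -0.31 and edgeR called 8 of the 76 genes, where 8.98% of all genes were called.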

How the data were processed

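RNA was sequenced from 6 HEK293T libraries. The authors deposited whole-number counts per Ensembl gene. The submitters' processing notes name cutadapt 4.4, STAR 2.7.4a and hg19 (GRCh37). The sources used here do not name the program that counted reads or its strand setting. Rows were matched by Ensembl ID without version to GENCODE 29 on GRCh38, from which lengths, GC content and gene coordinates come.

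Groups were compared with edgeR 4.0.16 in R 4.3.3 (TMM, filterByExpr, robust quasi-likelihood F test, group as the only term), with Benjamini-Hochberg adjustment over 19676 genes and a threshold of 0.05. Simulated counts were used to test the fit, and the biological coefficient of variation common to all genes was 0.113. Paralog shares were compared over all 20 assignments of libraries to groups (exact permutation test, two-sided). There were 18 alternatives, among them DESeq2 1.42.0, limma-voom (limma 3.58.1), a loess correction for GC content (span 0.5), a library set term (7SK share above 1%) and each library left out. The members and gene lists were chosen with earlier results of these data known. Per-library values are given for the member of each complex with the highest mean level per kilobase of longest transcript, those with the highest and lowest fold change and the smallest p, and the paralog families, with others where a count or share turned on them. The labels call the replicates biological. P-values measure the spread between these libraries.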

Additional observations from a re-analysis of the deposited data

How the results depend on the processing

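Counting error was small for most members, 44 of 59 of which averaged 50 CPM or more, and the spread of 3 libraries per group set the precision. The SD was a median of 10.9% of a member's mean in NT and 6.81% in TAR. Over all 6 libraries the highest library of a member exceeded the lowest by a median of 1.33-fold, which also holds the difference between groups. No member was called in the reported fit, 6 were called without the low-count filter, 3 by DESeq2, 4 with the library set term, and 0 to 9 with 1 library left out, the 9 without NT library 1. All other alternatives but the block called 0. The 13 members with an unadjusted p under 0.05 became 6 after GC correction and 6 to 28 with 1 library left out. The lowest of these, 6, was without TAR library 2, with 8 without TAR library 1, 7 without TAR library 3 and 28 without NT library 1. Of all genes, 16.1% were under that p in the reported fit, 6.99% after GC correction and 26.7% without NT library 1. The shares of all genes with any other library left out are not given here.

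With the replicate number as a block, 6 members and 6.14% of all genes were called, and 20 members had an unadjusted p under 0.05. The share of all genes at that unadjusted p with the block is not given here, so the 20 cannot be set against it. With GC correction and the block 0 members and 0.0305% of all genes were called. Deviations of same-numbered libraries correlated at 0.277, 0.0111 and 0.416 for numbers 1 to 3, so the numbers were not taken as pairs. NT libraries 1 and 3 correlated best with the TAR library of their own number and NT library 2 did not, a hint from the data only.

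Of 360 log2 fold changes recomputed for 20 members, 324 kept their direction and side of the threshold, 28 newly passed and 8 changed sign. EIF3G was 0.0008 with GC correction and block and 0.11 with GC correction and library set. With GC correction, without and with the block, EIF3M was -0.0181 and -0.0117, EIF4A2 -0.0236 and -0.0189, and EIF4E -0.0186 and -0.0168. In percentage points, the TAR minus NT share of EEF1A2 was -0.0211 without NT library 2, in a range up to 0.202 without NT library 3. That of EIF4EBP2 was -0.0399 without NT library 2, -1.27 without NT library 3 and -0.733 without TAR library 2, in a range up to 1.35 without NT library 1. The cause was not tested.

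With median transcript length in place of the longest, the ratio of the most to the least abundant member went from 10.4 to 4.99 in the eIF1 group, 140.2 to 122.5 in the eIF2 group, 50.02 to 67.8 in eIF3, 40.8 to 52.2 in eIF4F, 2.43 to 2.99 in the late factors and 274.1 to 317.7 in the eIF5A group, since the lengths differ. The least abundant members behind the eIF2, eIF3 and eIF5A ratios were EIF2S3B, EIF3CL and EIF5AL1. Reads of these near-identical copies cannot be assigned with certainty, so these ratios are uncertain too. Paralog shares with median transcript length, chosen after seeing the data, moved the mean over 6 libraries from 2.04% to 3.11% for EEF1A2 and from 0.737% to 5.89% for EIF5A2.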

Other observations

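Processed copies of these genes are scattered through the genome and can take reads from their parents. The table held 152 pseudogene rows named after EIF and EEF genes, of which 105 had counts and 38 were tested. Of the 38, 3 had an unadjusted p under 0.05 in edgeR, where 16.1% of all genes did. After adjustment 0 passed, against 0.0102% of all genes. EEF1A1P5, a processed copy of EEF1A1, was the highest at 221, 290.2 and 321 CPM in NT and 213, 272 and 334 CPM in TAR. Its log2 fold change was -0.02 ± 0.17, where that of EEF1A1 was -0.38 ± 0.13, and TAR library 3 was the highest of its 6 libraries. The difference between the fold changes of these genes was not tested.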
